A study of Mus musculus with 9 samples.

Results

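The regions described here are 1566 peaks of the transcription factor Cdx2 in mouse colon epithelium that overlapped, by 1 base or more, an open-chromatin peak in both control libraries and none in either mutant library. They are 30.7% of the 5100 Cdx2 peaks on chromosomes 1 to 19 and X, and are called Wt-only Cdx2 peaks below. Cdx2 binding came from 1 ChIP-seq library, in which DNA bound by Cdx2 is recovered with an antibody. Open chromatin came from ATAC-seq, in which a transposase cuts accessible DNA, with 2 libraries labelled Wt and 2 labelled DKO. Gene expression came from RNA-seq of another 2 libraries of each label, as the authors' comparison of DKO with Wt. All libraries, controls included, carried the genotype Cdx1-/- Cdx2f/f, so neither group has a normal Cdx1. Those labelled DKO were tagged vill (+) and those labelled Wt vill (-), which by the labels is the only genetic difference between them, and the promoter or cells that a vill transgene drives are not spelled out there. RNA and ATAC animals received tamoxifen for 6 days, whereas the ChIP library is tagged as untreated and vill (-). Cells were enriched from colon with EDTA, and no label says whether replicates came from separate animals, so spread between libraries may be technical. Log2 fold changes of DKO over Wt, their SE, adjusted p and mean normalised counts are everywhere those of the authors' deposited table, which holds no level per library.

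Cdx2 is a homeodomain protein that binds AT-rich DNA and is needed for intestinal identity. In the adult gut it sits at enhancers and promoters of genes for absorption, the brush border and mucus, often together with Hnf4a. Its close relative Cdx1 binds the same kind of site and can act at many of the same genes. A region bound by such a factor may be accessible because of it, or accessible without it, and peak lists from cells with and without the factor are one way of telling these apart.

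Whether the regions were closed in the mutant cannot be told from the peak lists, which were first compared at promoters of expressed genes. Across 753 genes with a mean of at least 1000 normalised counts and an adjusted p over 0.5 in the authors' deposited table, the promoter window held an ATAC peak in 91.8% and 92.8% of cases in Wt replicates 1 and 2. In the DKO libraries the same promoters held a peak in 15.4% of cases in replicate 1 and 36.5% in replicate 2. Promoters of expressed genes without a called difference were thus also missing from the DKO lists. The 4 lists held 48163, 53943, 40101 and 23961 peaks in that order, and their median fold enrichments over local background, which are the authors' values, were 4.95, 4.88, 3.90 and 3.77. The Wt lists shared 73.3% of replicate 1 and 64.1% of replicate 2, against 25.8% and 41.8% in DKO. A missing DKO peak therefore means only that none was listed there, and how far the weaker DKO lists set the membership was not tested. The targeted gene, Cdx2, stood at -0.27 (adjusted p = 0.30, SE 0.21) on the log2 scale by the authors' deposited table, so no loss of its RNA was called in the libraries labelled DKO. Whether the reads fall in the floxed part is not known here. DKO and Wt below mean the libraries so labelled, and every direction rests on those labels.

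**Figure D1:**
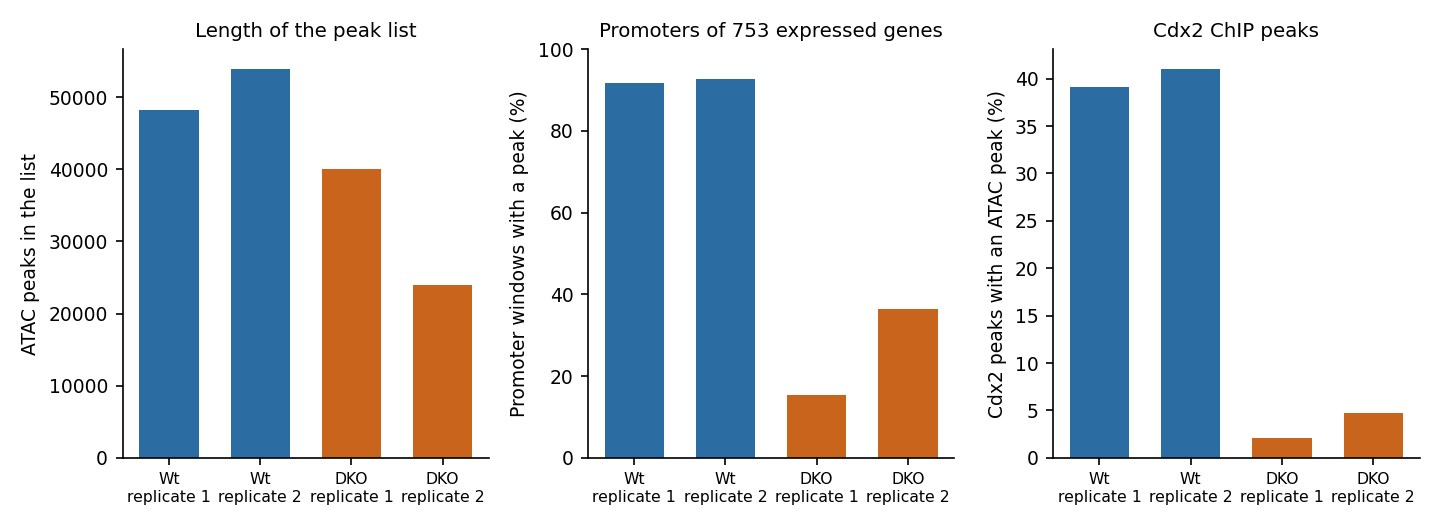
Bars give, for each of the 4 ATAC libraries, the number of listed peaks, the share of promoter windows of 753 expressed genes without a called difference that held a peak, and the share of the 5100 Cdx2 peaks that overlapped a peak. Wt libraries are blue and DKO libraries orange, and the DKO bars are lower in all 3 panels, at 15.4% and 36.5% against 91.8% and 92.8% for the promoters.

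The sequences under the peaks were read where a RefSeq promoter window of build GRCm38.p6, 250 bases before to 50 after a start, covered them. Of the 1566 peaks, 161 overlapped such a window, and they touched 191 windows of 177 genes. The stretches below run 30 bases to each side of the Cdx2 summit, 5′ to 3′ on the strand of the gene, with capitals for TTTAT, the core of the Cdx binding site, or for its reverse complement ATAAA. They were chosen after their values were seen, and the first set shows peaks whose summit stretch held the core: Dnm2 and Smarcad1, the strongest on a promoter, Akt2, Selenop, and Cdhr5, which was lower in DKO.

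Dnm2: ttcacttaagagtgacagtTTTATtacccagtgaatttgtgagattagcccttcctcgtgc
Smarcad1: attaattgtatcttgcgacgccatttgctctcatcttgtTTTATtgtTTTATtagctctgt
Akt2: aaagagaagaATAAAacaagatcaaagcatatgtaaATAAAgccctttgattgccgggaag
Selenop: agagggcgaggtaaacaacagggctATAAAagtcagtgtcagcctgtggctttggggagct
Cdhr5: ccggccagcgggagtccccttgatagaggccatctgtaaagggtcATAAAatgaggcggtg

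The positions, in build GRCm38.p6, were chr9:21424752-21424812 (plus strand), chr6:65042397-65042457 (plus), chr7:27591318-27591378 (plus), chr15:3270943-3271003 (plus) and chr7:141276809-141276869 (minus). In Selenop the capitals lie inside TATAAA, the letters of the TATA box. The next set shows summits without the core, at Psap, a lysosomal protein precursor, Eif3b, a translation initiation factor, and Bbox1, an enzyme of carnitine synthesis, at chr10:60277549-60277609 (plus), chr5:140419196-140419256 (plus) and chr2:110305716-110305776 (minus).

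Psap: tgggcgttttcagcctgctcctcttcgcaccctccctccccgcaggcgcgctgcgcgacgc
Eif3b: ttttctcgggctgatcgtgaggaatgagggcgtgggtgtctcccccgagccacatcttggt
Bbox1: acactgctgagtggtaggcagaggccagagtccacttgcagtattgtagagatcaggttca

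The third set gives the 250 bases before the start of 4 genes that were lower in DKO. Aqp8 (chr7:123462044-123462293), Slc26a3 (chr12:31437969-31438218) and Pck1 (chr2:173152823-173153072) had a Wt-only Cdx2 peak on this stretch. Trim31 (chr17:36897880-36898129) had one further upstream. All 4 are on the plus strand. In Slc26a3 the capitals lie inside TATAAA and past the end of its Cdx2 peak, and in Trim31 they lie inside the reverse complement of TATAAA.

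Aqp8: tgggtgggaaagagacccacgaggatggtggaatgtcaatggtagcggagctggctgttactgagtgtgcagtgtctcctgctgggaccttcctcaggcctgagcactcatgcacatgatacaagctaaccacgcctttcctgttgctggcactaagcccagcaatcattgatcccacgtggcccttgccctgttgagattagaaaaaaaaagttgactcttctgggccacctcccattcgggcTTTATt
Slc26a3: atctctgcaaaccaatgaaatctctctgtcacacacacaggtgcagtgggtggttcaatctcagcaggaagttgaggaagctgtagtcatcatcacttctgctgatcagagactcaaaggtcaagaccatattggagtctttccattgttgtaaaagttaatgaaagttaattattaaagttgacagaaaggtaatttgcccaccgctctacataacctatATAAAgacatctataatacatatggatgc
Pck1: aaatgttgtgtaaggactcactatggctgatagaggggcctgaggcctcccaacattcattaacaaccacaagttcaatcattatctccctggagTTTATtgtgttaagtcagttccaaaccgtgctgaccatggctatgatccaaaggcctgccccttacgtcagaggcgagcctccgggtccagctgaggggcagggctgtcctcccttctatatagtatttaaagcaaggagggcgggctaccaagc
Trim31: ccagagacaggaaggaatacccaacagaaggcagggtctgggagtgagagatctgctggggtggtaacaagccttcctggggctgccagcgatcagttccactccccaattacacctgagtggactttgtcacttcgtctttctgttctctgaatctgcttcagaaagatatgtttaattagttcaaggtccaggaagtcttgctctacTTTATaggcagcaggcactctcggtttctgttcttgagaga

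TTTAT stood on either strand in 92 of the 191 windows that Wt-only Cdx2 peaks touched, or 48.2% (95% exact interval 40.9% to 55.5%). Among all 32619 promoter windows of that table the share was 40.0%, and among the 11509 windows with a peak in both Wt lists and no Cdx2 peak it was 20.2%. The median GC content of these 3 sets was 54%, 53% and 63%, so the sets differed in base composition as well as in the motif. Leaving out matches inside TATAAA, the shares were 41.9%, 33.4% and 16.3%. Cdx2 peaks outside all 4 ATAC lists touched 48 windows, of which 91.7% held TTTAT, with a median of 46.5% GC. Cdx2 peaks in both Wt lists and at least 1 DKO list touched 86 windows, of which 27.9% held it, with 65.7% GC. The Wt-only peaks lay between these sets.

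Closer to the summit the same order was seen. TTTAT was in 26 of 96 stretches of 61 bases around Wt-only Cdx2 summits (27.1%, 18.5% to 37.1%), in 18 of 23 outside the ATAC lists (78.3%, 56.3% to 92.5%) and in 6 of 45 at peaks kept in a DKO list (13.3%, 5.05% to 26.8%). Around 3097 summits of Wt replicate 1 ATAC peaks that lay on promoters, were in both Wt lists and neither DKO list, and had no Cdx2 peak, the share was 4.17% (3.49% to 4.93%). The median GC content of these 4 sets of stretches was 49.2%, 39.3%, 62.3% and 62.3%, so here too the sets differed in base composition. The longer motif TTTATNG, searched on both strands, was in 22.5% of windows with a Wt-only peak and in 10.9% of all windows. GGGCGG, the GC box bound by Sp factors, was in 48.2% of windows with a Wt-only peak, 79.1% of those with a peak kept in DKO and 35.9% of all. Windows with a peak in both Wt lists and no Cdx2 peak held TTTATNG in 5.43% of cases and GGGCGG in 70.9%. TGACTCA, the AP-1 site, was in 3.66% against 5.22% of all, and CAAAGTCCA, an Hnf4a site, in 0.524% against 0.478%. These intervals cover counting error only, and windows of one gene can overlap.

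In Wt, the median accessibility of the members was above that of all listed open regions and below that of the Cdx2 peaks kept in DKO. Their ATAC fold enrichment had a median of 5.74 (2.56 to 13.4) in Wt replicate 1 and 6.02 (2.87 to 16.1) in replicate 2, where the full lists had medians of 4.95 and 4.88. The 221 Cdx2 peaks that were in both Wt lists and also in a DKO list had medians of 8.10 and 8.28, so the kept peaks had the higher Wt values. These values come from the lists that the selection used and are given without a test. The Cdx2 and ATAC summits of the Wt-only peaks were 70 bases apart at the median (67.5 to 74), as a mean of both libraries, against 117 bases (92.5 to 128.5) for the 221. The Cdx2 summit lay inside an ATAC peak of both Wt lists at 1016 of the 1566 (64.9%), and the median Wt ATAC peak was 151 and 153 bases wide. ATAC values of the 2 Wt libraries ran together across the 1566 peaks (Spearman rho 0.71), which share genome positions. Cdx2 fold enrichment showed rho of -0.08 and -0.06 with the ATAC values of Wt replicates 1 and 2.

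**Figure D2:**
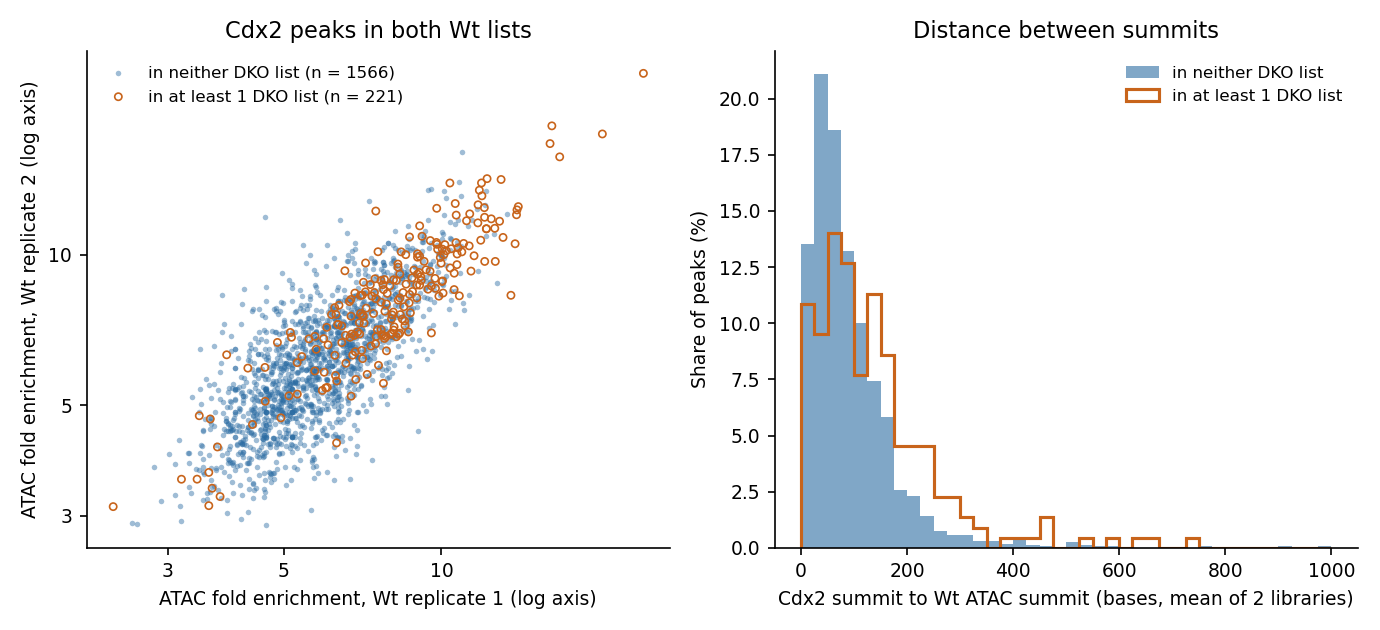
The left panel plots each Cdx2 peak in both Wt lists by its ATAC fold enrichment in Wt replicate 1 and replicate 2 on log axes, and the right panel plots the share of peaks by the distance in bases between Cdx2 and ATAC summits. Blue marks the 1566 peaks in neither DKO list (medians 5.74 and 6.02) and orange the 221 in at least 1 (medians 8.10 and 8.28), which lie further up the diagonal.

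Cdx2 fold enrichment at the Wt-only peaks was 5.40 at the median (3.34 to 17.3), against 4.84 at the 221 kept peaks and 5.73 at the 2765 Cdx2 peaks outside all 4 ATAC lists. The last set was the largest, 54.2% of all Cdx2 peaks, and another 499 were in 1 Wt list only. Of the 1787 Cdx2 peaks in both Wt lists, 87.6% were in neither DKO list. Counted over ATAC regions in both Wt lists, 84.9% of the 1823 with a Cdx2 peak and 74.4% of the 31909 without one were in neither DKO list. At promoters of expressed genes without a called difference and without a Cdx2 peak, the share was 49.2% of 713 regions. Most Wt regions, bound or not, were thus missing from both DKO lists.

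Some peaks lay close to the limit of the selection. A DKO peak lay within 100 bases of 36 of the 1566 peaks, the nearest 2 bases away, and within 1000 bases of 149. On the other side, 22 peaks were left out by a DKO overlap of at most 50 bases, the smallest 4 bases. The median Wt replicate 1 fold enrichment was 8.17 just inside and 7.25 just outside. With the 4 lists cut to the length of the shortest, 922 peaks met the rule, and 919 did when an ATAC peak had to cover 50% of the Cdx2 peak.

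Most of the Wt-only Cdx2 peaks were away from gene starts. Of the 1512 outside chromosome 18, which the promoter table used here does not cover, 227 had their Cdx2 summit within 1 kb of a start (15.0%, 13.2% to 16.9%), 310 at 1 to 10 kb, 631 at 10 to 50 kb and 344 farther away. Of the kept peaks 47.4% were within 1 kb of a start, and of those outside the ATAC lists 4.71%. The summit was inside a RefSeq gene span in 56.7%. They were spread singly over the genome: 1466 had no other within 10 kb, 45 pairs and 2 triples were found, and 1 group of 4 lay near Atp2b1, a plasma membrane calcium pump. By chromosome, the share of Cdx2 peaks that were Wt-only was highest on chromosome 10, at 105 of 283 (37.1%), and was 11 of 66 (16.7%) on X. ATAC peaks on X made up 1.84% and 1.74% of the Wt lists and 3.15% and 3.41% of the DKO lists, and the lists held 4, 6, 0 and 0 peaks on Y, so the sexes of the animals and the labels cannot be told apart.

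The 12 strongest members by Cdx2 fold enrichment ranged from 12.4 to 17.3. The strongest, at 17.3, was inside Dync1i1, a dynein chain gene, at chr6:5794169-5794510, with ATAC fold enrichments of 8.22 and 6.24 in the Wt libraries. The next, at 15.0, was near Ncoa1, a nuclear receptor coactivator gene, at chr12:4534199-4534550, with 5.36 and 7.83. Only the third, at 14.0, was on a promoter: that of Dnm2, the dynamin of endocytosis, 126 bases before the start, with 5.52 and 5.25. The nearest gene was taken here among the genes of the authors' deposited table, without a distance limit. Some starts were over 50 kb away, as for Dync1i1 (68705 bases) and Ncoa1 (57188 bases), and the farthest was at 218893 bases. Among all listed starts, of genes in that table or not, one lay 25493 bases from the Dync1i1 peak and one 10257 bases from the Ncoa1 peak. Of the 12 genes nearest to these peaks, 3 were lower in DKO and 0 higher at an adjusted p under 0.05, where 18.3% and 18.5% of all 17511 genes were called. The 3 were Oit1, a gene of intestinal epithelium, at a log2 fold change of -1.17 (SE 0.28), Limk2, an actin-regulating kinase, at -0.62 (SE 0.23), and Klf5, a crypt transcription factor, at -0.48 (SE 0.18), with adjusted p of 0.00011, 0.019 and 0.021 in the authors' deposited table. Dync1i1 and Ncoa1 did not pass the test (adjusted p = 0.15 and 0.42), and neither did Dnm2 (-0.10, SE 0.18, adjusted p = 0.72).

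Genes nearest to the Wt-only peaks were lower and higher in DKO about equally often. A start of a gene of the authors' deposited table lay within 50 kb of 1111 of the peaks, which named 1003 genes. Of these, 214 were lower in DKO (21.3%, 18.8% to 24.0%) and 217 higher (21.6%, 19.1% to 24.3%) at an adjusted p under 0.05 in the authors' deposited table. Over all 17511 genes of that table, 18.3% were lower and 18.5% higher, and over the 16361 with a position 18.8% and 19.4%. The median log2 fold change of the 1003 was -0.01, against -0.01 over all genes with a position. The shares were near the background in both directions, and the genes had higher levels, with a median of 749 normalised counts against 295. Within genes of at least 1000 normalised counts, 24.4% of 426 nearest genes were lower and 26.1% higher, against 20.4% and 29.4% of all 4146. In bulk tissue, fewer cells of a type and less RNA per cell cannot be told apart.

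Other sets give the scale of these shares. Genes nearest to Cdx2 peaks outside the ATAC lists were lower in 25.4% of 1505 cases and higher in 18.5%. Genes nearest to the kept peaks were lower in 17.0% of 171 and higher in 26.9%. Wt regions without a Cdx2 peak went the same way: 19.0% lower and 21.5% higher for those in neither DKO list, and 15.0% and 28.3% for those in at least 1. Genes can be nearest to peaks of several sets, and 227 of the 1003 were also nearest to a Cdx2 peak outside the ATAC lists, which is 22.6% of the first set and 15.1% of the second. Among the 715 nearest to no other Cdx2 peak, 20.7% were lower and 20.7% higher.

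**Figure D3:**
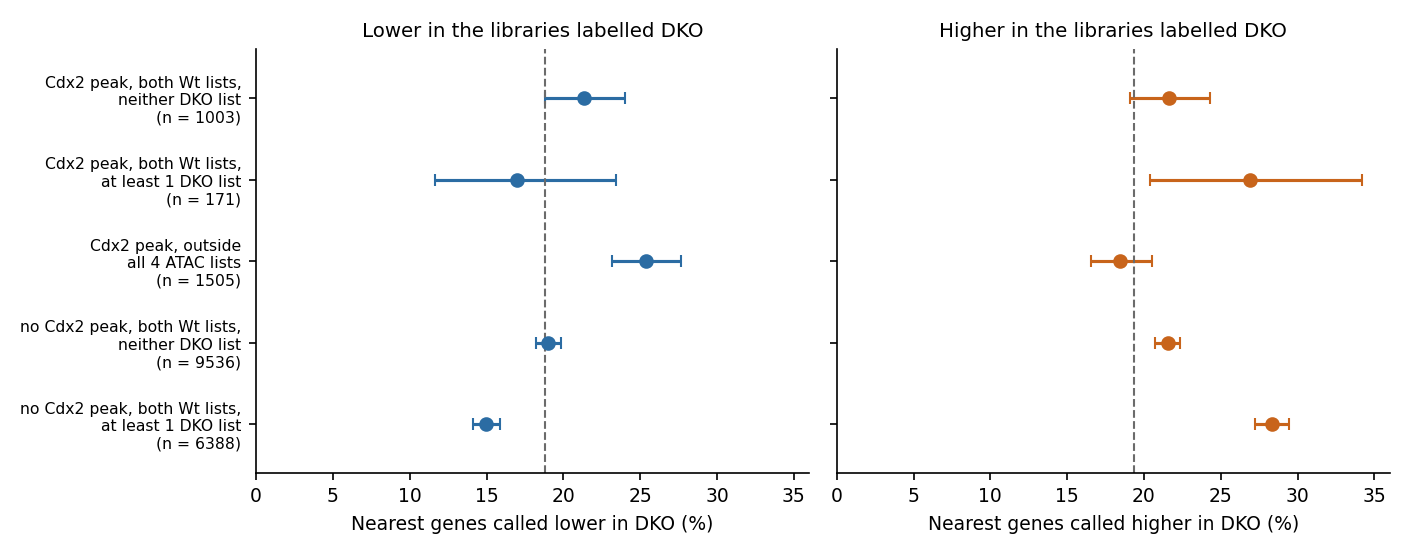
Points give the share of nearest genes (within 50 kb of the summit or region) called lower (left) or higher (right) in the libraries labelled DKO, with 95% exact binomial intervals that cover counting error only, and dashed lines mark 18.8% and 19.4%, the shares over all genes with a position. The genes of the Wt-only Cdx2 peaks, in the top row, stand at 21.3% and 21.6%.

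The share of lower genes was highest beside the members with the strongest Cdx2 signal and beside those with the weakest ATAC signal. When members were ranked by Cdx2 fold enrichment into 4 groups, in the highest, 6.41 to 14.0, 28.0% of 271 nearest genes were lower (22.8% to 33.8%) and 17.0% higher. In the other 3 groups the lower share was 18.9%, 19.0% and 18.9%. In the lowest of 4 groups by Wt ATAC fold enrichment, 26.0% of 269 were lower (20.9% to 31.7%) and 17.1% higher, and in the highest 18.8% of 271 and 23.2%. By distance, of 241 genes with a member within 1 kb of the start 23.7% were lower and 15.8% higher, and of 12892 with none within 100 kb 18.1% and 19.5%. For Cdx2 peaks outside all 4 ATAC lists, the shares were 27.4% and 16.9% of 124 genes within 1 kb. They were 17.6% and 19.8% of 11592 genes with no such peak within 100 kb, so the gradient was not particular to members. Genes with 0, 1, 2 and at least 3 members within 50 kb were lower in 18.3%, 22.0%, 23.5% and 24.3% of 14256, 1817, 251 and 37 cases. Members were counted near every listed start of a gene or, without one, near both ends of its span. None of these groups was compared by a test.

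Gene lists are given by role, and distances of genes without a start in the promoter table are to the nearer end of the gene span, as for Ehf, Klf5, Slc9a2, Plec, Abcc3, Muc3a and Cdx1. Over all 16361 genes with a position, 2105 (12.9%) had a Wt-only peak within 50 kb, and 22.2% of these were lower in DKO and 18.9% higher. Those shares are the background for the counts of every list below, none of which was compared with it by a test. Transcription factors of the intestine had the most genes near a Wt-only peak. Of 31 measured, 13 (41.9%) had one within 50 kb of the start, against 12.9% of all genes, and 7 of these were lower (53.8%) and 3 higher (23.1%), against 22.2% and 18.9%. Hnf4a, the nuclear receptor of enterocyte genes, had 3, including one 307 bases from its start with a Cdx2 fold enrichment of 3.77 and ATAC values of 5.63 and 6.18, and its log2 fold change was -1.09 (adjusted p = 2.1e-05, SE 0.24, authors' deposited table). Atoh1, which commits cells to the secretory lineage, had one 34874 bases away and stood at -2.38 (SE 0.23). On the other side Ehf, an epithelial Ets factor, was at 1.13 (SE 0.22) with a peak 43 bases from an end of its span, and Gata4, a factor of the proximal gut, at 2.99 (SE 0.62) from a mean of only 57.3 normalised counts, both from the authors' deposited table. The remaining 18 factors had 7 lower and 5 higher, so both groups held genes in each direction.

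Of 31 measured genes of colonocyte ion and water transport, 8 (25.8%) had a Wt-only peak nearby, with 6 lower (75%) and 1 higher (12.5%), against 22.2% and 18.9% of all genes near one. Aqp8, a water channel of surface colonocytes, had a Cdx2 peak over its start (fold enrichment 6.17) with ATAC values of 4.29 and 5.35 in Wt, and no peak of either DKO list lay within 30 kb. Its log2 fold change was -2.21 (adjusted p = 2.5e-21, SE 0.23, authors' deposited table), from a mean of 13696 normalised counts. Slc26a3, the chloride-bicarbonate exchanger of the colon, had one member 142 bases before its start and another 16185 bases away, and stood at -1.86 (adjusted p = 1.6e-12, SE 0.25, authors' deposited table). Slc9a2, a sodium-proton exchanger, had 2 of the stronger members, with Cdx2 fold enrichments of 8.82 and 10.3, and stood at -2.60 (SE 0.26). Slc51a, a subunit of the basolateral bile acid transporter, stood at -5.48 (SE 0.31) with a member of 8.64 at 24312 bases. The 23 transport genes with no member nearby had 10 lower and 7 higher.

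Brush border and adhesion genes had 10 of 42 (23.8%) near a Wt-only peak, 4 of them lower (40%) and 2 higher (20%). Cdhr5, a protocadherin that links microvilli, had one on its promoter (Cdx2 6.91, Wt ATAC 4.10 and 4.87) and was at -2.21 (adjusted p = 2.7e-13, SE 0.29) in the authors' deposited table. Plec, a linker of the cytoskeleton, was at -2.03 (SE 0.21). The list's other 32 genes had 21 lower (65.6%) and 5 higher. Cdh17, a cadherin of the intestine, was among these, with the nearest member 363911 bases away and a log2 fold change of -0.48 that did not pass the test (adjusted p = 0.17).

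Among mucin and mucin glycosylation genes, 8 of 23 (34.8%) had a member nearby, with 4 lower (50%) and 2 higher (25%). Muc3, a membrane mucin, had 2, the nearer 27693 bases from its start at a Cdx2 fold enrichment of 10.2, and stood at -2.91 (SE 0.24) in the authors' deposited table. Muc3a, its annotated neighbour, shares both members and stood at -5.12 (SE 0.30). Reads of such close copies may be split between them, and the same holds for the Akr1c and Ces1 families. Goblet cell genes had 5 of 23 (21.7%) near a member, with Atoh1 and Agr2, a disulfide isomerase for mucins, lower (Agr2 -1.49, SE 0.25), Galnt3, which starts O-glycans, higher (1.37, SE 0.25), and the others, Spink4 and Ern2, not past the test. The 18 goblet genes without a member nearby had 16 lower and 0 higher.

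Lipid and drug metabolism genes had 6 of 49 (12.2%) near a member, with 4 lower (66.7%) and 1 higher (16.7%). Ces1g, a lipid-hydrolysing carboxylesterase, was at -6.41 (SE 0.26), Cyp4f40 at -1.93 (SE 0.24) with a member over its start, and Abcc3, a basolateral export pump, at -1.62 (SE 0.19), whereas Abcc2, its apical relative, was at 2.93 (SE 0.84) from 35.1 normalised counts, all in the authors' deposited table. Crypt stem cell and Wnt target genes had 3 of 21 (14.3%), with Rnf43, a Wnt receptor ligase, at 0.94 (SE 0.26) beside 3 members, Ephb2 at 0.58 (adjusted p = 0.064) and Lrig1 at -0.14 (adjusted p = 0.64). None of the 13 measured gastric epithelial genes had one within 50 kb, although 9 of them were higher in DKO. Defence and chemokine genes had 2 of 21 (9.52%), Pigr and Ccl20, neither past the test, while 12 of the other 19 were higher. Of all genes 12.9% had a member in that window, and with 13 and 21 genes nothing particular to these lists is read from the counts.

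**Figure D4:**
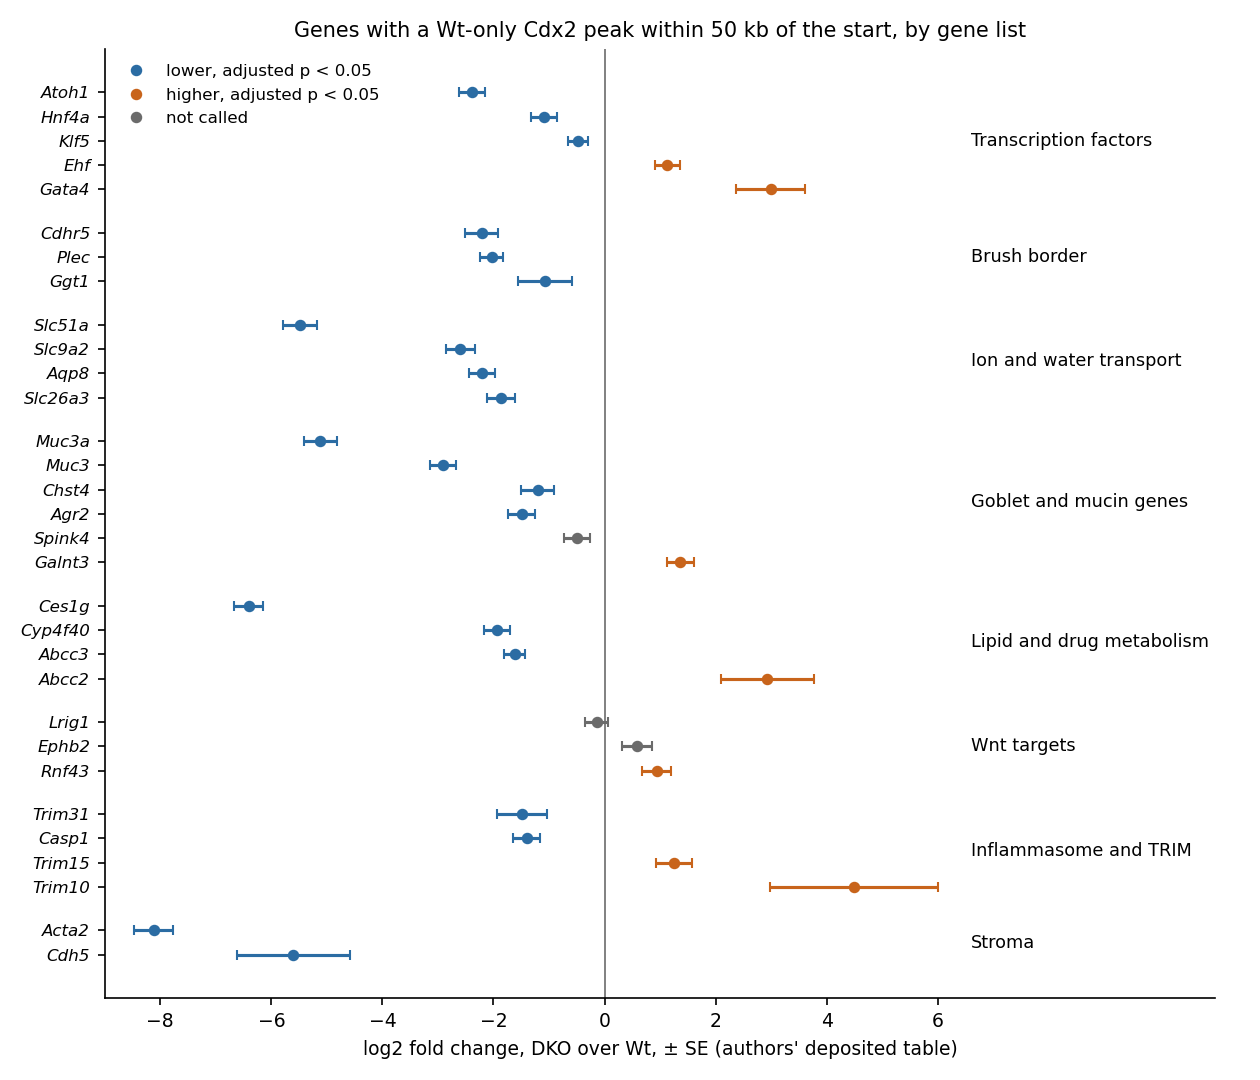
Points give the log2 fold change of DKO over Wt with its SE, from the authors' deposited table, for genes with a Wt-only Cdx2 peak within 50 kb of the start, grouped by gene list and coloured by the authors' adjusted p at 0.05. Transport genes from Slc51a (-5.48) to Slc26a3 (-1.86) lie left of 0, and Gata4 (2.99), Abcc2 (2.93) and Trim10 (4.49) lie right of it.

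Markers of some other cell types were mostly lower in the libraries labelled DKO, and those of others were not. All 20 genes of stroma, muscle and endothelium were lower in DKO, with a median log2 fold change of -5.13, and 2 of them, Acta2 (-8.11, SE 0.35) and Cdh5 (-5.60, SE 1.01), had a member within 50 kb. Acta2, smooth muscle actin, was the lowest of the called genes with a mean of at least 100 whose nearest Cdx2 peak was a member, and 2 more of the 10 lowest, Tpm2 (-4.79) and Tgfb1i1 (-6.89), are also genes of smooth muscle by textbook knowledge. Of 12 B and plasma cell genes 9 were lower and 0 higher, with a median of -2.20, and 2 had a member nearby. Of 12 T cell genes 0 were lower and 3 higher, with none near a member, and of 12 myeloid genes 3 were lower and 4 higher, with 4 near. All these values are from the authors' deposited table, which gives no level per library, so summed levels per group are not given. The part of such cells in the values of genes near members was not tested.

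Of the other 7 genes of that lowest set, Ces1g, Slc51a and Muc3a are on the lists above. Slc13a1, a sulfate transporter, was at -7.79 (SE 0.78), Adra2a, an adrenergic receptor, at -5.97 (SE 0.35), Naaladl1, a peptidase of the ileum, at -4.91 (SE 0.34) and Btnl1, a butyrophilin-like protein that maintains intraepithelial lymphocytes, at -4.70 (SE 0.26) in the authors' deposited table. The Btnl1 member lay 3856 bases from its start, with a Cdx2 fold enrichment of 6.49 and ATAC values of 4.13 and 3.46. The 6 highest genes were Tuba8, Nucb2, Bbox1, Krt23, Ptges and Gclc. Gclc, which makes the first step of glutathione synthesis, was at 3.71 (SE 0.25) from 9757 normalised counts, and Krt23, a keratin, at 3.97 (SE 0.30). Bbox1 was the only one of the 6 with its member on the promoter, 21 bases from the start, at 3.99 (SE 0.63).

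Trim31, a ubiquitin ligase that acts on the inflammasome sensor Nlrp3, had 1 Wt-only Cdx2 peak, at chr17:36897066-36897416, at -1064 to -714 bases from its start. Its Cdx2 fold enrichment was 5.95, and the ATAC peak over it had 5.33 in Wt replicate 1 and 5.15 in replicate 2. The nearest DKO peaks were 11413 and 22903 bases away. A separate ATAC peak of Wt replicate 1, at 5.63, spanned the start, from -181 to 4 bases. That of Wt replicate 2, at 4.55, ended before the start, from -263 to -23 bases. Both were without a Cdx2 peak and without a DKO peak, and covered the TTTAT of the printed promoter. Trim31 was at -1.48 (adjusted p = 0.0013, SE 0.45) in the authors' deposited table, from 669 normalised counts. The same member lay 27668 bases from Trim10, which was at 4.49 (SE 1.51) from 21.0 normalised counts, and 30032 bases from Trim15, at 1.26 (adjusted p = 0.00025, SE 0.32), so neighbours of one peak moved in opposite directions. One DKO replicate 2 peak, at 22190 to 22575 bases after the start, lay where both Wt lists also had one.

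Of the 25 inflammasome and TRIM genes, 10 (40%) had a member nearby, with 3 lower (30%) and 3 higher (30%), against 12.9% of all genes near one and 22.2% and 18.9% of these. Trim31, Trim10 and Trim15 were counted through the same member, so the 10 genes do not stand for 10 separate regions. Casp1, the inflammasome caspase, had 2 and was at -1.40 (SE 0.25). Nlrp3 had none within 50 kb, the nearest being 4680456 bases away, and did not pass the test from a mean of 8.77 normalised counts. Cdx1 and Cdx2 had none either, at 243309 and 375144 bases, and Cdx1 was at -1.06 (adjusted p = 2.1e-05, SE 0.23) in the authors' deposited table although both groups are labelled Cdx1-/-.

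**Figure D5:**
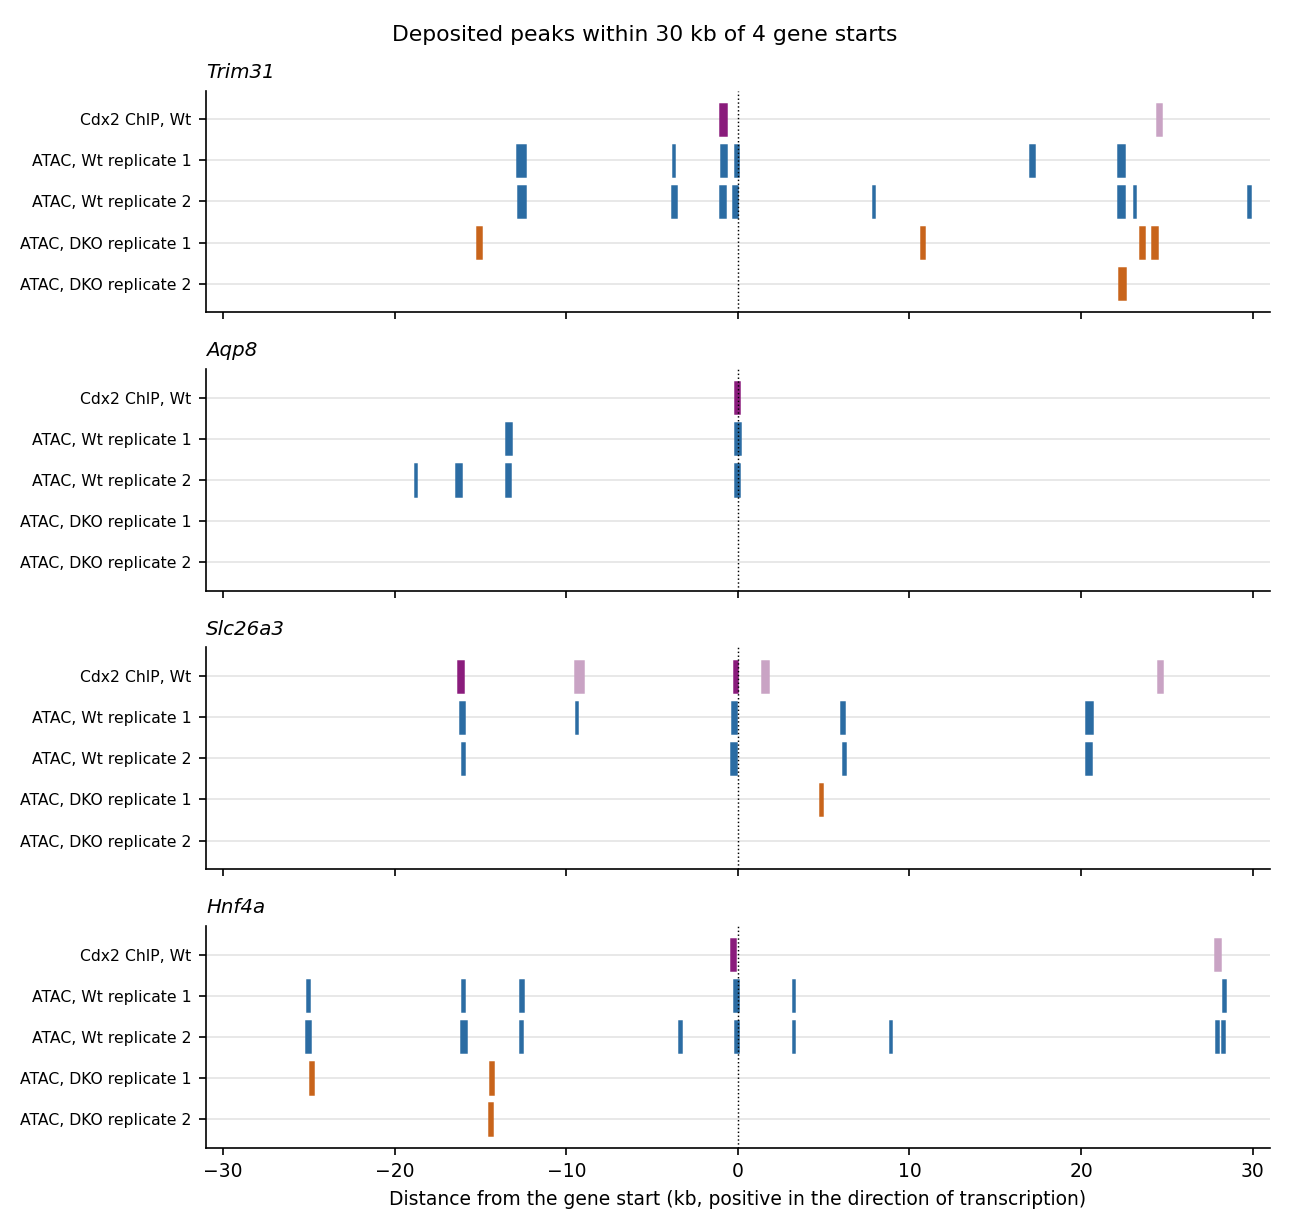
Deposited peaks within 30 kb of the starts of Trim31, Aqp8, Slc26a3 and Hnf4a are drawn to scale against distance from the start in kb, with Wt-only Cdx2 peaks in dark purple, other Cdx2 peaks in light purple, Wt ATAC peaks in blue and DKO ATAC peaks in orange. At Trim31 the dark peak sits at -1064 to -714 bases over a peak of both Wt lists, and at Aqp8 neither DKO list has a peak in the window.

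On promoters, genes under a Wt-only Cdx2 peak were called in both directions. Of 177 genes with a member on a promoter window, 138 were measured, and 30 were lower (21.7%) and 22 higher (15.9%), against 18.3% and 18.5% of all 17511 genes. The median log2 fold change was -0.04. Pck1, the gatekeeper of gluconeogenesis, was lowest at -2.81 (adjusted p = 1.7e-16, SE 0.33), ahead of Cdhr5 and Aqp8, in the authors' deposited table. Akr1c19, an aldo-keto reductase, was at -1.87 (SE 0.29). Genes used by every cell were among them too. Eif3b was at 0.10 (SE 0.17), Rps19, a ribosomal protein gene, at 0.25 (SE 0.21) and Rpl23, another, at 0.31 (SE 0.19), and none passed the test in the authors' deposited table. In all, 14 well expressed genes with an adjusted p above 0.5 had a member on the promoter, between -0.20 and 0.21. Genes with TTTAT in the 250 bases before a start were lower in 11 of 61 cases and higher in 11, and those without it in 19 and 11 of 77. As shares, 18.0% and 24.7% were lower, with intervals that overlap.

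By the rule that takes the strongest promoter members, Dnm2 was followed by Smarcad1, a chromatin remodeller, at 9.57, and its gene was higher in DKO (1.16, SE 0.31, adjusted p = 0.00051, authors' deposited table). Akr1c13 (Cdx2 7.83), Rhot2 (7.77), Clrn3 (7.85) and Tyw1 (7.17) were lower, between -0.90 and -0.62, and Gcnt2 (7.41), a branching enzyme of glycans, was higher at 0.88 (SE 0.28). Ceacam18, Rdh9 and Psap did not pass the test. Strong promoter peaks were thus found at genes that were lower, higher and not called.

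Genes with the most members within 50 kb were as mixed. Ankhd1, Gmds and Tmc5 had 4 each, and were at -0.77 (SE 0.28), 0.55 (SE 0.22) and -0.31 (SE 0.19, not past the test) in the authors' deposited table. Ankhd1 and Tmc5 were placed by the ends of their span, so members were counted around both ends, and no single end had all 4. Among those with 3, Gne, which makes the first step of sialic acid synthesis, was at -0.98 (SE 0.21), Bfar, an apoptosis regulator, at -1.77 (SE 0.21) and Akr1c19 at -1.87. Selenop, the selenium carrier, was at 0.07 (SE 0.25) despite a member 4 bases from its start with Wt ATAC values of 8.14 and 7.93. One Bfar member had DKO peaks 558 and 545 bases away, and one of Gne had a DKO replicate 2 peak only 92 bases away.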

How the data were processed

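Peak lists of 1 Cdx2 ChIP library and 4 ATAC libraries, and a gene table comparing 2 DKO with 2 Wt RNA libraries, were used. The submitters' processing notes list Salmon 1.3.0, DESeq2, MACS2, Bowtie2, BWA and fastp, with GRCm38 and mm10 as builds. For the role and settings of each, a transposase shift or a ChIP control, the sources used here give nothing. Each peak's fold enrichment (a ratio over local background), -log10 p, -log10 q and score (a rescaled -log10 q) were written by the authors for each library separately. These names follow the place of each column in the peak format, and the score was not used. No ATAC peak had a -log10 q under 1.30 and no Cdx2 peak under 1.54. Read depth per library is unknown. In the gene table the log2 fold change, its SE, the mean normalized count (a signal scaled between libraries) and the p-value and adjusted p are the authors', per the file headers. The deposited p equals that of fold over SE, within 0.01 in log10, for 1751 of 17511 genes, so folds may be shrunken. Transcript estimates in other deposited files were not used, since nothing here pairs transcripts with genes. The planned edgeR test on gene sums was therefore not run.

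Python 3.11.15 (pandas 2.3.3, numpy 2.4.6, scipy 1.17.1) compared peaks by overlap of at least 1 base on chromosomes 1 to 19 and X. Peak columns were read by their place in the format, and table columns by name. Genes were placed by RefSeq GRCm38.p6: 12109 by a start in the promoter table, 4252 by the ends of their span, 93.4% in all. The promoter table used here has no chromosome 18. Each peak took the nearest start within 50 kb, and genes were called at the authors' adjusted p under 0.05. Intervals are exact binomial (shares) or from order statistics (medians), at 95%. The overlap, distance and motif steps were tested on simulated data.

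The members and lists were chosen with earlier results of these data known. Named genes were the 12 strongest members; the 10 lowest and 6 highest called genes, at a mean of at least 100, whose nearest Cdx2 peak was a member; up to 4 per list, 10 promoter members and 8 genes with most members; and Trim31, Nlrp3, Cdx1, Cdx2 and Cdh17. Other genes were picked after their values were seen, and 1 gene that the rule takes is not reported here. Alternatives changed the overlap, peak threshold, list length, library, window, gene filter and motif.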

Additional observations from a re-analysis of the deposited data

Results flagged for a closer look

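A total of 79 Cdx2 peaks lay on unplaced scaffolds and the mitochondrial genome, outside the chromosomes that the comparisons use. They had a median fold enrichment of 4.11 and a highest of 20.0, and 7 were mitochondrial. There is no control peak list to set them against.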

How the results depend on the processing

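Of 89 recomputed values over 8 results, 72 stayed within the counting interval of the reported value (or, for the number of peaks, within 1.5 times) and 17 did not. The number of peaks fell from 1566 to 919 when an ATAC peak had to cover at least 50% of the Cdx2 peak, with a median Cdx2 fold enrichment of 5.28, a summit distance of 65 bases and 18.2% within 1 kb of a start. With lists cut to equal length it was 922, 916 of them members, with 18.6% near a start. With the ATAC peak over the Cdx2 summit the distance was 52.5 bases. With a Cdx2 -log10 q of at least 5 the median enrichment was 5.86 and 10.4% were near a start. Leaving out each library in turn gave 1579 to 1862 peaks, 67 to 72 bases, 13.8% to 17.5% near a start, 21.2% to 22.2% of nearest genes lower and 21.5% to 22.1% higher. Higher genes were 18.5% within 10 kb and 24.8% at a mean of at least 50 with p readjusted. At 2-fold or more 13.0% were lower and 12.2% higher. The shares over all genes at these mean and fold settings were not computed. Values at these 2 settings therefore cannot be set against the background shares given above. TTTAT was in 60% of windows that held the Cdx2 summit, and TTTATNG in 22.5% of windows. The cause of these shifts was not tested beyond what each setting removes. The median log2 fold change of nearest genes lay between -0.04 and 0.05. Of the named genes 73 kept their call at a mean of at least 50, C1qb and Rdh9 gained one and 9 had no value. Chosen after seeing the data, leaving out X gave 1555 peaks, and using genes with a listed start gave 21.4% lower. No paired analysis was possible because the results are shares of genes and peaks, the deposited gene table holds no value per library, the peak lists give no test, and nothing used here pairs the transcripts of the deposited estimated counts with genes, so the edgeR fits on genes with and without a replicate block were not run. A fit on the transcripts themselves was not run either, since it gives no share of genes. The read depth behind the peak lists is unknown, and its part in them was not tested.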
